A study of Mus musculus with 36 samples.

Results

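The 10 carboxylesterase genes Ces1b, Ces1c, Ces1d, Ces1e, Ces1f, Ces1g, Ces2a, Ces2c, Ces2e and Ces3a were followed through liver, kidney and heart of growing mice. They were chosen by name and found through their Ensembl identifiers, and are 10 of the 78239 genes counted in each library. Polyadenylated RNA was sequenced from wild-type male C57BL/6NCrl mice of 3 ages, which were 8, 10 and 12 weeks. Each of the 9 groups of tissue and age held 4 libraries, which the study calls biological replicates, and there were 36 libraries in all. All mice were fed ad libitum and anaesthetized with ketamine and xylazine, and no group received another treatment. The groups differ by design in tissue and age. All mice were bought at the same age, so age and time since arrival in the facility cannot be told apart. Whole tissue was homogenized, so each value is a mean over all cell types of the organ, and fewer cells of a type cannot be told apart from less RNA per cell. The labels do not tie a library to an animal, so no pairing of tissues was assumed.

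Carboxylesterases are serine hydrolases, most of them resident in the endoplasmic reticulum, that split ester and amide bonds of drugs, pesticides and lipids. Liver is their best known site, where they take part in the first phase of drug metabolism and in turnover of stored triacylglycerol, and mice carry many more copies than humans through tandem duplication. Family 1 members prefer esters with a small alcohol group, whereas family 2 members prefer esters with a small acyl group.

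The members lay in 2 blocks of chromosome 8 (GRCm39). All 6 Ces1 genes stood on the minus strand between chr8:93780578, the end of Ces1b, and chr8:94063953, the start of Ces1g, in the order Ces1b, Ces1c, Ces1d, Ces1e, Ces1f and Ces1g. The other 4 genes stood on the plus strand between chr8:105460630, the start of Ces2a, and chr8:105789243, the end of Ces3a, in the order Ces2a, Ces2c, Ces2e and Ces3a. The canonical transcripts of the Ces1 genes had 14 exons in 5 of 6 genes and 13 in Ces1c, those of the 3 Ces2 genes had 12, and that of Ces3a had 13.

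Of the 10 members, 7 had a promoter in the RefSeq table (GRCm38.p6), which gives 250 bases before and 50 bases after a start site, and Ces1d, Ces1f and Ces3a did not. Exact letters of 5 known motifs were searched on both strands. The sequence TTATGTAA, the palindrome-like site of PAR bZIP factors such as DBP, TEF and HLF, which carry the rhythm of the clock into liver and kidney, stood in the promoters of all 4 Ces1 members in the table and in none of the 3 Ces2 members. It stood in 308 of all 32851 promoters, or 0.938%. The 30 bases around it are shown because these 4 members share the letters, with the letters in capitals:
Ces1b: gagggggagctTTATGTAAttatgctaatt
Ces1c: gagggggagctTTATGTAAttatgctaatt
Ces1e: ctgagagatatTTATGTAAgaagttgtttg
Ces1g: ggggagaaacaTTATGTAAgatgttccttg

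These 4 windows, matched in GRCm39, were chr8:93806634-93806663, chr8:93857987-93858016, chr8:93956310-93956339 and chr8:94064051-94064080, all read on the minus strand. Their first capital stood 84 bases before the first of 2 start sites of Ces1b in the table, 94 before that of Ces1c, 81 before that of Ces1e and 232 before that of Ces1g. The windows of Ces1b and Ces1c are the same in all 30 bases, and over the 250 bases before the start these 2 promoters were identical at 210 of 223 aligned positions (94.2%), so they are copies and not separate cases. Ces1e and Ces1g stand in the same block of tandem genes, and whether they are separate cases was not tested. The Ces1b window lies inside the gene as GENCODE annotates it, and the other 3 lie outside their genes. The match describes letters and does not show that a factor binds there.

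Longer stretches upstream of the annotated gene are given for Ces1e, Ces1c and Ces2c. The liver and kidney libraries overlapped for Ces1e, Ces1c was the highest member in liver, and Ces2c was the highest of the Ces2 genes in kidney. The PAR bZIP letters are in capitals where present:
Ces1c, chr8:93857943-93858092, minus strand: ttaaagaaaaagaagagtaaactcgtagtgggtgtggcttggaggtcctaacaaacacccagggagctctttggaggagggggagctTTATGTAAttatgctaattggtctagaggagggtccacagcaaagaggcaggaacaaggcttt
Ces1e, chr8:93956248-93956397, minus strand: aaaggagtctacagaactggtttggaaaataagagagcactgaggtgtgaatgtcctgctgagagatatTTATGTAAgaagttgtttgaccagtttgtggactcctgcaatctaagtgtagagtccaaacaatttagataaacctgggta
Ces2c, chr8:105573550-105573699, plus strand: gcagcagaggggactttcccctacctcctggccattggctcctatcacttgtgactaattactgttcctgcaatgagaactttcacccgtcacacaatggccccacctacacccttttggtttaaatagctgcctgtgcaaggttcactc

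The other 4 motifs had few matches in these promoters. The TATA box letters (TATAAA) were found in Ces1g alone, and there on the strand opposite to the gene. On either strand 13.6% of all promoters hold them. The nuclear receptor core AGGTCA was found in Ces2a alone, where 16.3% hold it. Neither the HNF1 core GTTAAT (7.10% of all promoters) nor the HNF4 site CAAAGTCCA (0.475%) was found in any of them. Of the 8 other mouse carboxylesterase genes with a promoter in the table, Ces1a alone also held TTATGTAA, and the other Ces1 gene among them, Ces1h, did not.

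Depth was between 21031599 and 33637390 counted pairs per library. Levels are given as CPM, the counts of a gene scaled to the counted pairs of its library, log2 differences and tests come from edgeR with its TMM scaling factors, and ratios of pooled counts use library sizes alone. Any 2 libraries of a group differed by more than counting error. Hepatocyte markers summed to between 72971 and 113590 CPM in liver libraries, proximal tubule markers to between 26132 and 33724 CPM in kidney libraries and cardiomyocyte markers to between 45190 and 59703 CPM in heart libraries, as the labels have it. The hepatocyte list was not at 0 elsewhere, with 102 to 223 CPM in kidney and 0.0777 to 23.1 CPM in heart.

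Liver carried most of the family. The 10 members together took between 0.471% and 0.702% of the counted pairs of a liver library, between 0.131% and 0.209% of a kidney library and between 0.00668% and 0.0124% of a heart library. In liver the median share was 0.531% at 8 weeks, 0.583% at 10 weeks and 0.644% at 12 weeks. In kidney it was 0.158%, 0.148% and 0.187% at the same ages.

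**Figure D1:**
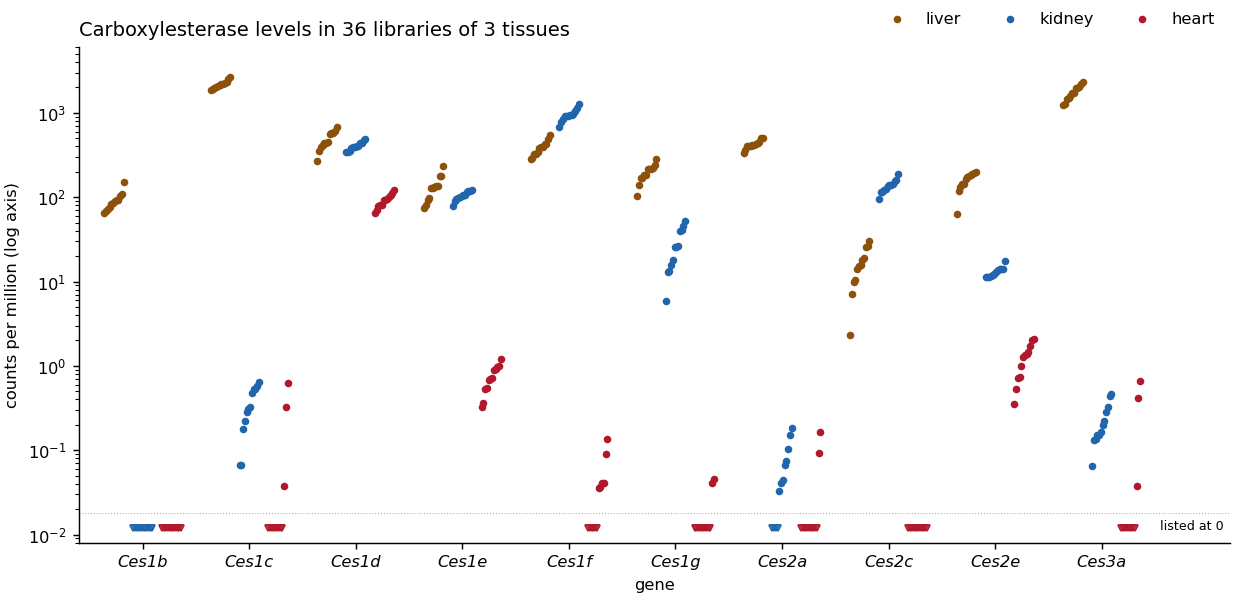
Level of each carboxylesterase gene in the 36 libraries, in CPM on a log axis, with a point for each library sorted by level within its tissue and open triangles for libraries listed at 0. Liver libraries stand above all kidney and heart libraries for Ces1b, Ces1c, Ces1g, Ces2a, Ces2e and Ces3a, kidney libraries stand on top for Ces1f and Ces2c, and the liver and kidney libraries overlap for Ces1d and Ces1e.

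Against kidney, all 10 members passed the test in liver, 8 of them higher in liver and 2 higher in kidney, where 83.1% of all 19716 genes tested passed it in either direction. The libraries of the organs did not overlap for 8 of 10 members, where they did not for 60.3% of all genes. Since most genes differ between these organs, the sizes say more than the counts. Median log2 difference over the members was 4.07 against -0.16 over all genes.

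A first set of 4 genes was nearly restricted to liver. Ces1c, a form secreted into mouse plasma, had the highest level per kilobase of all members in liver, at 2185 ± 229 CPM (SD, n = 12), and 0.351 ± 0.198 CPM in kidney. Over the pooled counts, 702709 in liver and 118 in kidney, its level was 6161 times as high in liver, with an exact 95% counting interval from 5144 to 7443, on library sizes alone. Ces3a, a hydrolase of the endoplasmic reticulum, followed with 1754 ± 350 CPM in liver and 0.228 ± 0.127 CPM in kidney, a ratio of 7965 (6334 to 10161). Ces2a, which acts on acylglycerols, had 421 ± 48.1 CPM in liver and 20 counts in all kidney libraries together, a ratio of 6984 (4522 to 11435). Ces1b had 90.8 ± 23.7 CPM in liver and no count in any kidney or heart library, so that it was at least 9969-fold higher in liver than in kidney against a floor of 3 counts over the 12 kidney libraries. These intervals and floors cover counting error only. With TMM factors the log2 differences were larger, at 13.41 for Ces1c, 13.71 for Ces3a and 14.23 for Ces2a (fitted against a group near 0).

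Ces1g and Ces2e were present in both organs and higher in liver. Ces1g, a hydrolase of the hepatocyte endoplasmic reticulum that has been linked to lipid secretion, had 195 ± 46.9 CPM in liver and 26.8 ± 14.7 CPM in kidney, with a log2 difference of 3.77 ± 0.17 (SE, adjusted p = 8.68e-18 in edgeR). Ces2e had 156 ± 38.6 CPM in liver and 13.0 ± 1.82 CPM in kidney, a log2 difference of 4.37 ± 0.14 (adjusted p = 1.59e-24 in edgeR). For both genes the lowest liver library, at 103 and 63.2 CPM, stood above the highest kidney library, at 51.8 and 17.5 CPM.

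Kidney led for the 2 remaining genes with a clear order. Ces1f, a microsomal esterase related to Ces1d, ran from 684 to 1284 CPM in kidney and from 285 to 550 CPM in liver, without overlap, and was the highest member per kilobase in kidney. Its log2 difference, liver minus kidney, was -0.51 ± 0.08 (adjusted p = 6.92e-07 in edgeR). Ces2c, a hydrolase of drug esters and acylglycerols, ran from 95.7 to 191 CPM in kidney and from 2.30 to 30.1 CPM in liver, with a log2 difference of -2.41 ± 0.16 (adjusted p = 4.18e-13 in edgeR). It was the lowest member per kilobase in liver and the third highest in kidney. In kidney it had 57.4 CPM per kilobase, where Ces1d, the second, had 79.0. Its count leaves out pairs that overlap a gene on the other strand, and the ranks were not repeated with those pairs. The sum of its strand columns was 1.65 times its kidney count, so its place against Ces1d rests on the count used.

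For Ces1d and Ces1e the libraries of the organs overlapped, and the size of the difference rested on the scaling. Ces1d, a triacylglycerol hydrolase of liver and fat, ran from 268 to 676 CPM in liver and from 346 to 488 CPM in kidney. Ces1e, also known as egasyn, which holds beta-glucuronidase in the endoplasmic reticulum, ran from 74.7 to 232 CPM in liver and from 78.6 to 121 CPM in kidney. With TMM factors their log2 differences were 1.01 ± 0.10 and 1.11 ± 0.10 (adjusted p = 1.07e-11 and 3.44e-12 in edgeR). With library sizes alone, which move the median of all genes from -0.16 to -0.93, these fell to 0.22 and 0.32 (adjusted p = 0.0254 and 0.00446), while Ces1f moved to -1.31 and Ces2c to -3.20. All 10 directions were the same under both scalings and under RLE factors.

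Ranked per kilobase of exon, the liver order was Ces1c, Ces3a, Ces2a, Ces1d, Ces1f, Ces1g, Ces2e, Ces1e, Ces1b and Ces2c. On the count used, the kidney order began with Ces1f, Ces1d, Ces2c and Ces1e and ended with Ces2a and Ces1b. Per kilobase of the canonical transcript, a length tried after the data were seen, Ces1d moved above Ces2a and Ces1e above Ces2e in liver. On the same counts all 10 ranks in kidney were the same.

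Heart held little of any member except Ces1d. Ces1d ran from 65.2 to 122 CPM there, below every kidney and liver library, with log2 differences of 2.64 ± 0.10 for liver and 1.63 ± 0.10 for kidney against heart (adjusted p = 8.82e-23 and 5.12e-17 in edgeR). Ces2e stood at 1.22 ± 0.560 CPM and Ces1e at 0.739 ± 0.267 CPM, and both had counts in all 12 heart libraries. Ces1b and Ces2c had no count in any heart library. Against heart, 10 of 10 members were higher in liver, where 84.2% of all genes passed in either direction, and 8 of 10 were higher in kidney, where 86.1% of all genes passed. Of the 2 that did not pass in the second comparison, Ces1b was at 0 in both organs and Ces2a had 20 counts in kidney and 6 in heart.

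The few heart counts of the liver-restricted genes fell into the same libraries. Ces1c had 7 counts in heart 10 weeks replicate 2, 15 in replicate 4 of that age and 1 in heart 12 weeks replicate 4, and Ces3a had 9, 16 and 1 in the same 3 libraries and 0 in the other 9. All counts of Ces2a and Ces1g in heart were in the first 2 of them. The hepatocyte marker sum was 17.9, 23.1 and 3.76 CPM in these 3 libraries and at most 0.711 CPM in the other 9. Their part in these counts was not tested. Ces1d, by contrast, had counts in all 12 heart libraries, with 79.0, 100.8 and 122 CPM in these 3 and 65.2 to 112.6 CPM in the other 9.

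The strand columns show where a neighbour takes reads. A pair that overlaps genes on both strands is counted for neither in the column used here, but for each in its strand column. For 8 members the sum of the strand columns was at most 1.002 times the count used. For Ces2c it was 1.73 times that count in liver and 1.65 times in kidney, and for Ces3a it was 1.12 times in liver. Ces2c shares 689 exon bases with the lncRNA gene ENSMUSG00000141451 (chr8:105578166-105615336, minus strand), and Ces3a shares 1 exon base with Gm45724 (chr8:105777681-105778100, minus strand). The pairs left out of the Ces2c count were a like share at 8, 10 and 12 weeks, with ratios of 1.75, 1.69 and 1.74 in liver and 1.67, 1.67 and 1.62 in kidney.

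**Figure D2:**
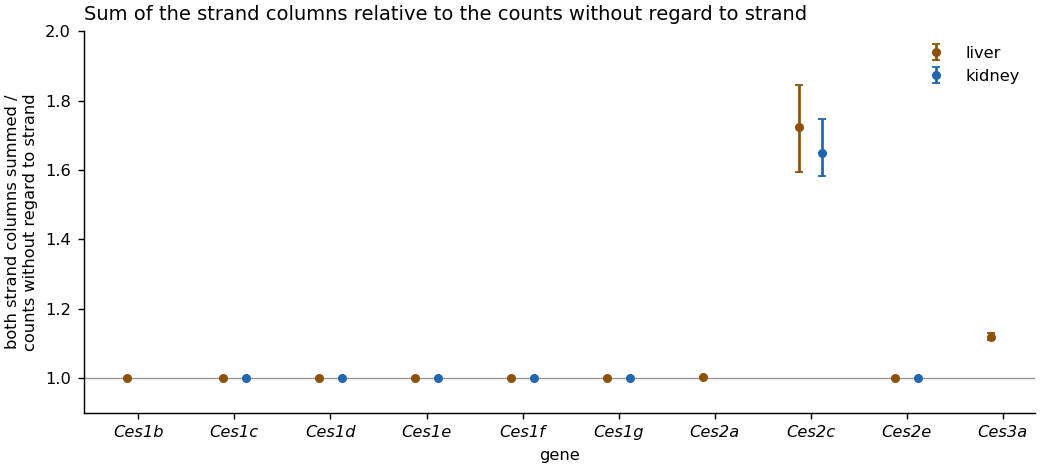
Sum of the 2 single-strand counts divided by the count without regard to strand, for each carboxylesterase gene with at least 100 counts in liver or kidney, with points for the ratio of pooled counts and bars from the lowest to the highest library. The ratio is 1.73 in liver and 1.65 in kidney for Ces2c and 1.12 in liver for Ces3a, and the other members lie on the line at 1.

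Sequence shared between copies touched mainly the same gene. Of the 150-base words of Ces2c, 34.4% also occur in Ces2d-ps, Gm64957 or Gm8798, against 1.63% for Ces2a, 0.637% for Ces3a and 0% for the 7 others, and no word is shared between 2 members. Only pairs with a single place in the genome were counted, so Ces2c values may be too low. The share of words is not a share of pairs, and how many pairs were lost was not measured.

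In liver most members had a higher mean at 12 than at 8 weeks, and none of them passed the test. By edgeR's quasi-likelihood test with Benjamini-Hochberg adjustment 0 of 10 passed, where 0.239% of 14672 genes passed. The log2 fold change at 12 against 8 weeks was above 0 for 9 of 10 members and for 49.3% of all genes. The median log2 fold change over the 10 members was 0.48 against -0.004 for all genes. DESeq2 called 3 of 10, Ces1e, Ces1f and Ces2c, where it called 2.89% of all genes. For 4 of 10 members, Ces1f, Ces1g, Ces2c and Ces3a, all 12-week libraries stood above all 8-week ones, where 3.48% of all genes did so.

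Ces2c had the largest fold change. Its liver level was 10.5, 7.15, 13.9 and 2.30 CPM at 8 weeks, 17.96, 9.84, 15.4 and 19.2 CPM at 10 weeks and 25.6, 26.3, 15.9 and 30.1 CPM at 12 weeks. All libraries of 12 weeks stood above all of 8 weeks, and those of 10 weeks overlapped both. The log2 fold change at 12 against 8 weeks was 1.58 ± 0.38 (adjusted p = 0.101 in edgeR), from 1.28 to 1.93 over the alternatives, with adjusted p from 2.29e-04 to 0.476.

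Ces1f came nearest to the threshold. It had 289, 344, 285 and 324 CPM at 8 weeks, 428, 323, 399 and 390 CPM at 10 weeks and 491, 550, 428 and 381 CPM at 12 weeks. Here too 12 weeks did not overlap 8 weeks, and the log2 fold change was 0.60 ± 0.12 (adjusted p = 0.0615 in edgeR). That p was between 0.0319, without replicate 4 of 12 weeks, and 0.163 when single libraries were left out, and between 5.11e-04 (DESeq2) and 0.522 over all alternatives.

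Ces1e, Ces1g and Ces1d had close means at 8 and 10 weeks and their highest means at 12 weeks, without a call. Ces1e had 81.1, 135, 136 and 93.2 CPM at 8 weeks, 98.4, 74.7, 133 and 130 CPM at 10 weeks and 177, 232, 129 and 178 CPM at 12 weeks, where a single library, replicate 3, lay within the range of the younger mice. Its log2 fold change was 0.71 ± 0.21 at 12 against 8 weeks and 0.80 ± 0.21 at 12 against 10 weeks (adjusted p = 0.158 and 0.121 in edgeR). Ces1g stood at 168, 170, 216 and 103 CPM, then 140, 183, 214 and 185 CPM, then 281, 238, 221 and 219 CPM, so that all 4 libraries of 12 weeks were above all 8 younger ones. The difference from 8 weeks was 0.58 ± 0.18 on the log2 scale (adjusted p = 0.171 in edgeR). For Ces1d the 12-week libraries ran from 554 to 676 CPM, the 10-week libraries from 349 to 449 CPM and the 8-week libraries from 268 to 573 CPM, with 0.64 ± 0.19 at 12 against 10 weeks (adjusted p = 0.1496 in edgeR).

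Ces3a had close means at 10 and 12 weeks. Its level was 1480, 1508, 1591 and 1235 CPM at 8 weeks, 2343, 1286, 2013 and 1979 CPM at 10 weeks and 1968, 2185, 1722 and 1738 CPM at 12 weeks. Only replicate 2 of 10 weeks lay among the libraries of 8 weeks. Log2 fold changes were 0.34 ± 0.14 at 10 against 8 weeks and 0.42 ± 0.14 at 12 against 8 weeks (adjusted p = 0.315 and 0.213 in edgeR).

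For the other 4 members the 12-week libraries overlapped those of 8 weeks. The mean of Ces2a was 403 ± 44.2 CPM in the youngest and 467 ± 41.4 CPM in the oldest mice (SD, n = 4). All its 12-week libraries, from 419 CPM, stood above all 10-week ones, up to 409 CPM, with a log2 fold change of 0.33 ± 0.11 (adjusted p = 0.181 in edgeR). Ces1c had 2076 ± 303 and 2337 ± 209 CPM at these ages. Ces2e stood at 140 ± 54.3 CPM at 8 weeks, where replicate 4 had 63.2 CPM and the others 142 to 183 CPM, and at 180 ± 25.3 CPM at 12 weeks. Ces1b was the only member with a lower mean at 12 than at 8 weeks, 92.5 ± 11.7 against 104 ± 34.6 CPM, and replicate 4 of 8 weeks was its highest library at 152 CPM. The smallest adjusted p of these 4 at 12 against 8 weeks was 0.316, for Ces2a, in edgeR.

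**Figure D3:**
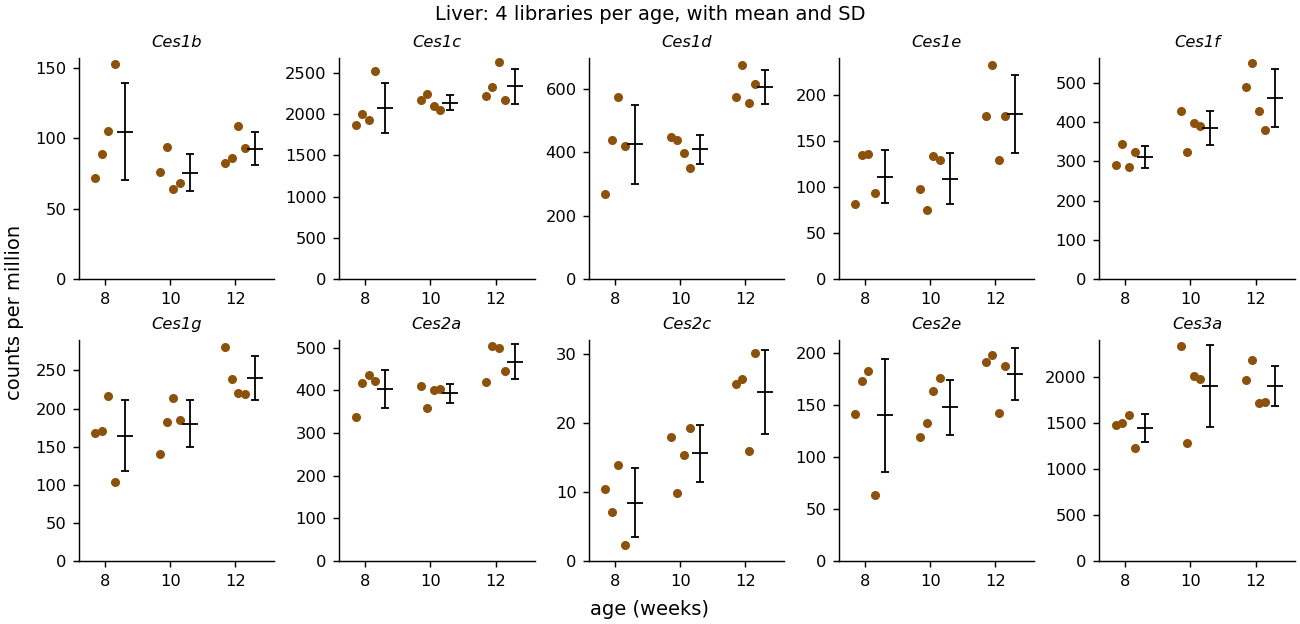
Liver level of the 10 carboxylesterase genes at 8, 10 and 12 weeks in CPM on axes from 0, with a point for each of 4 libraries per age and the mean with its SD beside them. The 12-week libraries stand above all 8-week libraries for Ces1f, Ces1g, Ces2c and Ces3a, where 3.48% of all genes tested in liver do so. Ces1b is the only gene shown whose mean is lower at 12 than at 8 weeks.

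The remaining liver comparisons had the same outcome. At 10 against 8 weeks 0 of 10 members passed, where 0.0204% of all genes did, with 5 higher and 5 lower and a median of 0.01. At 12 against 10 weeks 0 of 10 passed, where 0.0545% of all genes did, but all 10 were higher, with a median of 0.37. DESeq2 called 2 members, Ces1d and Ces1e, in the latter comparison, where it called 3.68% of all genes. For 3 members, Ces1d, Ces1g and Ces2a, the 12-week libraries stood above all 10-week ones, where 1.25% of all genes did so. The 3 comparisons share their libraries and are not separate evidence.

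Markers of other cell types also differed between the same liver libraries. The summed level of 4 macrophage markers was 41.2 to 91.9 CPM at 8 weeks, 103 to 151 CPM at 10 weeks and 57.2 to 61.7 CPM at 12 weeks, and that of 3 endothelial markers was 53.4 to 99.1, 100.5 to 107 and 36.4 to 59.4 CPM. Replicate 4 of 8 weeks, the lowest library for Ces1g, Ces2c, Ces2e and Ces3a, was also the lowest of its age for both lists, at 41.2 and 53.4 CPM, and the highest for hepatocyte markers. Their part in the differences was not tested. Without that library the log2 fold change at 12 against 8 weeks was above 0 for all 10 members, with 0.12 for Ces1b, 0.18 for Ces2e and 1.28 for Ces2c.

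In kidney most members had their highest mean at 12 weeks, again without a call. Of the 10 members 7 had enough counts to be tested, and Ces1b, Ces2a and Ces3a did not. At 12 against 10 weeks 0 of 7 passed in edgeR, where 0.482% of 17649 genes did. There 6 of 7 were higher, and the median was 0.38 against -0.0009 for all genes. DESeq2 called 4 of the 6 it gave an adjusted p for, Ces1e, Ces1f, Ces1g and Ces2c, all higher at 12 weeks, where it called 4.98% of all genes.

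Ces1g had its lowest kidney levels at 10 weeks. Its kidney level was 26.5, 25.3, 25.8 and 41.3 CPM at 8 weeks, 5.83, 12.9, 13.3 and 18.1 CPM at 10 weeks and 39.7, 51.8, 15.5 and 45.7 CPM at 12 weeks. Every 10-week library was below every 8-week library, as for 1 of 7 members and 3.43% of all genes, and replicate 3 of 12 weeks lay within the 10-week range while the other 3 were above it. The log2 fold change was -1.25 ± 0.35 at 10 against 8 weeks and 1.64 ± 0.35 at 12 against 10 weeks (adjusted p = 0.0974 and 0.0563 in edgeR). Without replicate 3 of 12 weeks both comparisons passed, with adjusted p = 0.0480 and 0.0185 in edgeR, where leaving out single libraries gave at most 0.249 and 0.160.

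Ces1e also had its lowest kidney mean at 10 weeks, with smaller differences. It had 106, 107, 116 and 97.6 CPM at 8 weeks, 78.6, 94.8, 91.3 and 99.98 CPM at 10 weeks and 120, 118, 102 and 121 CPM at 12 weeks. All 12-week libraries were above all 10-week ones, as for 1 of 7 members and 3.14% of all genes, with a log2 fold change of 0.38 ± 0.09 (adjusted p = 0.0706 in edgeR). The 10-week and 8-week libraries overlapped, with a log2 fold change of -0.24 ± 0.09 (adjusted p = 0.179 in edgeR).

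Ces1f and Ces2c, the 2 genes higher in kidney than in liver, had close means at 8 and 10 weeks. Ces1f had 937, 909, 916 and 684 CPM at 8 weeks, 787, 843, 911 and 977 CPM at 10 weeks and 1136, 1284, 950 and 1041 CPM at 12 weeks, and all 4 libraries of 12 weeks were above all of 8 weeks. Ces2c went from 117, 122, 140 and 116 CPM through 142, 95.7, 124 and 136 CPM to 155, 191, 140 and 158 CPM. For both genes, 2 of 7 members, the 12-week libraries stood above all 8-week ones, where 2.73% of all genes did so. Their log2 fold changes at 12 against 8 weeks were 0.38 ± 0.11 and 0.40 ± 0.12 (both with adjusted p = 0.251 in edgeR), and at 12 against 10 weeks 0.37 ± 0.11 and 0.41 ± 0.12 (adjusted p = 0.125 and 0.113).

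For Ces1d and Ces2e the kidney ages overlapped. Ces1d ran from 348 to 474 CPM at 8 weeks, 346 to 406 CPM at 10 weeks and 392 to 488 CPM at 12 weeks. Ces2e had means of 12.6 ± 1.18, 13.5 ± 0.915 and 12.9 ± 3.05 CPM (SD, n = 4), and replicate 3 of 12 weeks, at 17.5 CPM, stood above the other 11 libraries. Ces1c had at most 0.643 CPM in any kidney library.

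**Figure D4:**
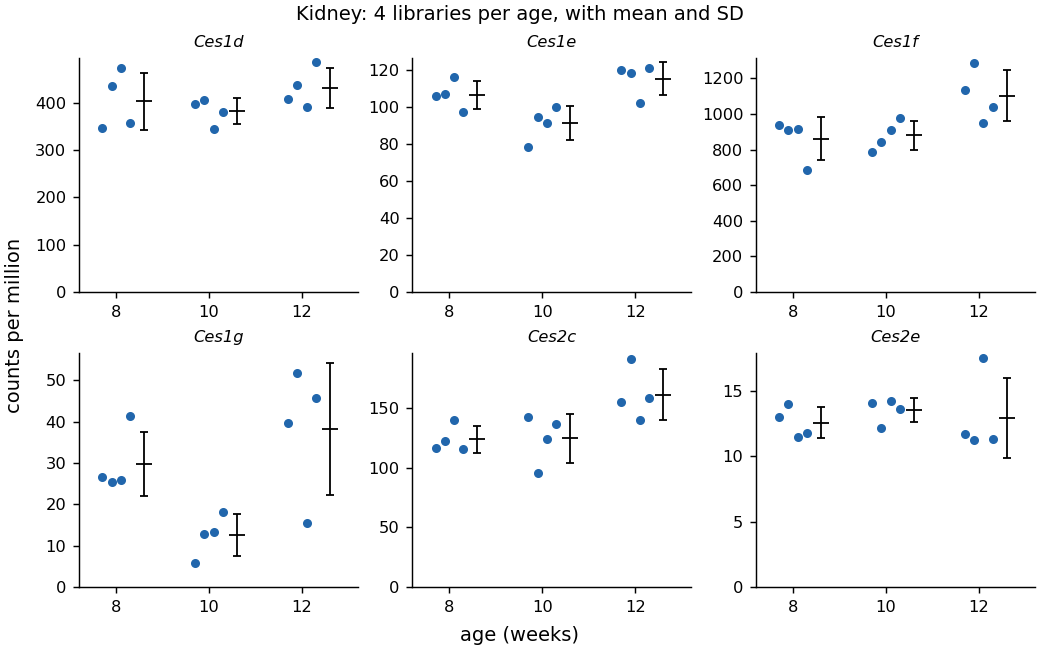
Kidney level of 6 carboxylesterase genes at 8, 10 and 12 weeks in CPM on axes from 0, with a point for each of 4 libraries per age and the mean with its SD beside them. Ces1g lies below its 8-week range in all 4 libraries of 10 weeks, and replicate 3 of 12 weeks, the third point of each group, is the lowest of its age for Ces1d, Ces1e, Ces1f, Ces1g and Ces2c and the highest for Ces2e.

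At 12 against 8 weeks 0 of 7 members passed in kidney, where 0.0567% of all genes did, and 6 of 7 were higher. At 10 against 8 weeks 0 of 7 passed, where 0.929% of all genes did, and 5 of 7 were lower. Kidney libraries also differed in fat markers. The adipocyte marker sum ran from 0.156 to 26.0 CPM and the brown fat sum from 0.0938 to 34.6 CPM, both highest in replicate 2 of 8 weeks. That library had 435 CPM of Ces1d, a gene of fat cells too, where the other 3 of its age had 348 to 474 CPM. Lymphocyte markers summed to 5.002 to 20.01 CPM at 12 weeks, lowest in replicate 3, and to 1.73 to 4.72 CPM at the younger ages. Their part in the members' values was not tested.

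In heart 3 members could be tested. Ces1d had 69.9, 81.7, 93.9 and 92.1 CPM at 8 weeks, 65.2, 79.0, 96.3 and 100.8 CPM at 10 weeks and 112.6, 107, 80.5 and 122 CPM at 12 weeks, with a log2 fold change of 0.30 ± 0.14 at 12 against 8 weeks (adjusted p = 0.203 in edgeR). Ces1e and Ces2e differed by 0.47 ± 0.36 and 0.72 ± 0.40 in the same direction (adjusted p = 0.443 and 0.292). At 12 against 8 weeks 0 of 3 passed, where 4.56% of 15137 genes did. At 10 against 8 weeks 0 of 3 passed against 1.06% of all genes, and at 12 against 10 weeks 0 of 3 against 0.0396%.

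**Figure D5:**
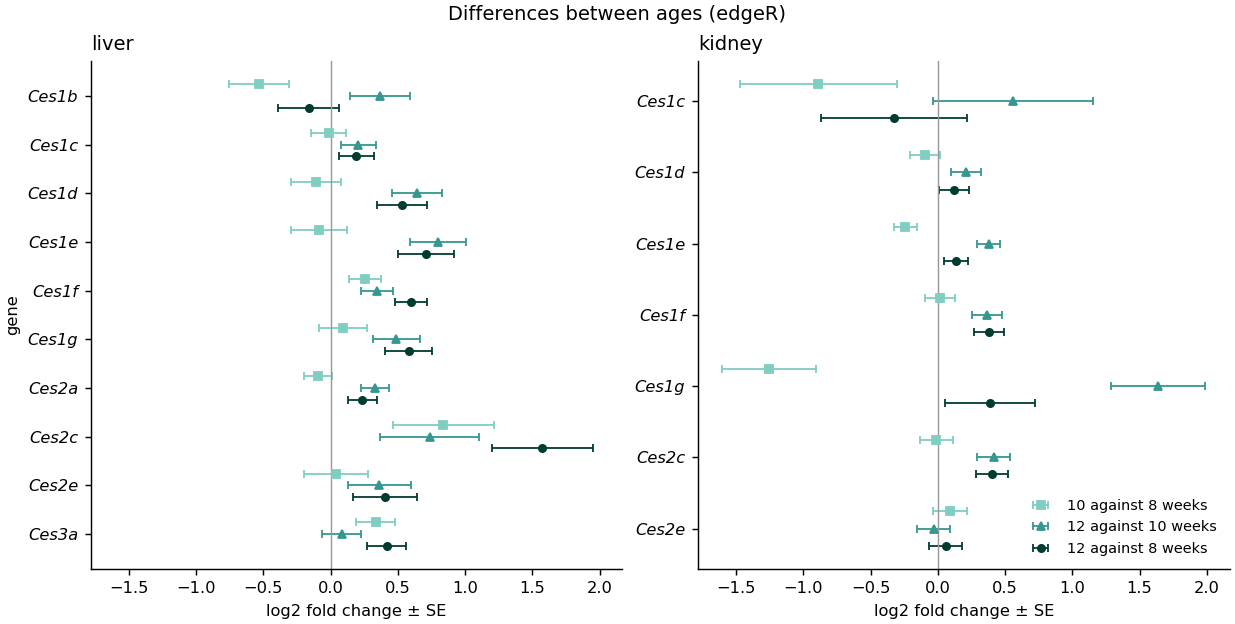
Log2 fold change between ages with its standard error from edgeR, for the 10 members tested in liver and the 7 tested in kidney. In liver 9 of 10 points at 12 against 8 weeks lie right of 0, up to 1.58 for Ces2c, and in kidney Ces1g lies at -1.25 at 10 against 8 weeks and at 1.64 at 12 against 10 weeks.

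Whether the change from 8 to 12 weeks differed between organs was tested directly. Between liver and kidney 0 of 10 members passed, where 0.304% of 19716 genes did. Ces2c had the difference nearest to a call among genes well counted in both organs, with a log2 fold change larger by 1.19 ± 0.38 in liver (adjusted p = 0.185 in edgeR). Over the alternatives the adjusted p was 0.0440 to 0.311, the lowest with limma-voom, which called 0.365% of all genes. For Ces1f and Ces1g the differences were 0.23 ± 0.20 and 0.20 ± 0.38. Between liver and heart 0 passed where 4.16% of all genes did, and between kidney and heart 0 passed where 0.112% did. For members near 0 in an organ these tests decide little. The SE of the liver against heart difference was 2407 for Ces1g and 8805 for Ces2c. In kidney Ces1b had 0 counts, Ces2a 20 and Ces3a 73 over all libraries.

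Within an organ the members were partly alike over the 12 libraries. Pearson's r of log2 CPM over the 45 pairs in liver had a median of 0.479, from -0.520 for Ces1b with Ces2c to 0.859 for Ces1g with Ces2e, and was above 0 in 37. In kidney, over the 15 pairs of 6 genes, the median was 0.499, with 0.876 for Ces1e with Ces1g and -0.571 for Ces1g with Ces2e. The libraries share age and tissue composition, and these values are a description. Outside the family, the protein coding gene with the highest r in liver was Abcg2, a xenobiotic exporter, for Ces2c (0.961) and Ugt2b5, a glucuronosyltransferase, for Ces3a (0.961). Further liver partners were Cbr4 for Ces2a (0.955), Emg1 for Ces1c (0.938), Degs1l for Ces1d (0.927), Lgals1 for Ces1g (0.922) and Uck1 for Ces2e (0.887). In kidney the partners were Lin7a for Ces1e (0.966), Mtmr12 for Ces1f (0.965), Nsfl1c for Ces2c (0.948), Agpat3 for Ces1g (0.918), Pde6a for Ces1d (0.914) and Zc2hc1a for Ces2e (0.864). Each was picked as the highest of 11217 genes in liver or 12770 in kidney over 12 libraries.

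The 10 other carboxylesterase genes were mostly low. Ces3b, the tandem neighbour of Ces3a, had 270 ± 88.3 CPM in liver and no count in kidney, its strand columns summing to 1.82 times the liver count, and Ces2g had 47.2 ± 8.79 CPM in liver, 9.01 ± 1.29 CPM in kidney and 2.35 ± 0.825 CPM in heart (SD, n = 12). Ces2b and Ces2h were kidney genes, with 9.73 ± 3.59 and 5.44 ± 1.89 CPM there and 0.235 ± 0.175 and 0.199 ± 0.131 CPM in liver. Ces4a had 2.38 ± 1.18 CPM in liver, and Ces1a, Ces1h, Ces2d-ps, Ces2f and Ces5a stayed below 2 CPM in every library. None of those tested passed in an age comparison of liver or kidney, where 0.0204% to 0.929% of all genes did. In heart Ces2g was higher at 12 than at 8 weeks by 0.83 ± 0.23 on the log2 scale (adjusted p = 0.0452 in edgeR). There 4.56% of all genes passed.

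Other genes of ester and lipid hydrolysis and of their control did not pass in liver or kidney either. Of 20 other hydrolases 19 were tested in liver, with 15 higher at 12 than at 8 weeks, a median of 0.20 and 0 called. Of 16 nuclear receptors and liver transcription factors, among them those known to induce carboxylesterases, 12 were higher in liver at 12 weeks, with a median of 0.17 and 0 called. Of 11 clock and PAR bZIP genes, 7 were higher in that comparison and 0 were called. There 0.239% of all genes were called and 49.3% were higher, so 0 calls in such short lists say little. At 10 against 8 weeks 8 of these 11 were lower in kidney, 7 in liver and 8 in heart. The smallest adjusted p in edgeR was 0.0741 in kidney, 0.118 in liver and 0.0586 in heart. Each is the value of Bmal1, which was higher at 10 weeks, against the direction of most of the list. The Ces1g values in that comparison were -1.25 in kidney and 0.09 in liver on the log2 scale. At 12 against 10 weeks 9 of 11 were higher in kidney, 8 in liver and 7 in heart, with 0 called. Of all genes 0.482%, 0.0545% and 0.0396% were called there. Bmal1, a core clock gene chosen here after its values were seen, had log2 fold changes at 10 against 8 weeks of 1.93 ± 0.42 in liver, 1.63 ± 0.42 in kidney and 1.95 ± 0.48 in heart (adjusted p = 0.118, 0.0741 and 0.0586 in edgeR). The hour at which tissues were taken is not given in the sources used here, and its part in the age differences of the carboxylesterases was not tested.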

How the data were processed

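Counts of read pairs per gene were deposited by the authors, who checked reads with FastQC 0.11.9, trimmed them with cutadapt 4.2, aligned them with STAR 2.7.11b to GRCm39 (Ensembl annotation) and counted uniquely mapped pairs. The deposited counts are whole numbers without normalization, and the counts that ignore strand were analysed, since 49.8% to 50.2% of pairs fell on the first strand. Names and positions came from GENCODE, which matched 78168 of 78239 identifiers.

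Per tissue, genes entered the test if at least 1 age had 2 or more samples above 0 and a mean count of at least 10. Ages were compared with edgeR 4.0.16 (TMM factors, glmQLFit, glmQLFTest, R 4.3.3) over the 12 libraries of a tissue, organs and differences of change over all 36 libraries. A call is an adjusted p under 0.05, by Benjamini-Hochberg over all genes kept. Folds given as ratios of pooled counts used exact binomial intervals and a floor of 3 counts. Limma 3.58.1 (voom), DESeq2 1.42.0, other factors, filters and strand columns, a replicate block and leaving out each library were alternatives, and the steps were tested on simulated data. Promoters came from RefSeq and were matched exactly to GRCm39. Python 3.11.15 was used for the rest.

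Members and lists were chosen with earlier results of these data known. The single genes given are the 10 members, the 10 other carboxylesterases, the gene with the highest correlation to a member (not reported here for 3 members in liver), and genes of 3 related lists only where called in liver or kidney. Bmal1 and the 3 longer promoter stretches were picked after values were seen. Replicates are separate samples per the study's methods.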

Additional observations from a re-analysis of the deposited data

Results flagged for a closer look

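In 53 groups of 4 libraries with counts, 4 held a library that stood apart by Dixon's 95% criterion on its gap to the nearest other library, where chance gives about 1 in 20 groups. All 4 were in kidney and came from 2 libraries. Replicate 4 of 8 weeks was the lowest of its age for Ces1f, at 684 CPM where the others had 909 to 937 CPM, and the highest for Ces1g, at 41.3 CPM where the others had 25.3 to 26.5 CPM. Replicate 3 of 12 weeks was the lowest of its age for Ces1e, at 102 CPM where the others had 118 to 121 CPM, and the highest for Ces2e, at 17.5 CPM where the others had 11.2 to 11.7 CPM. Replicate 3 of 12 weeks also had the lowest lymphocyte marker sum of its age, at 5.002 CPM.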

How the results depend on the processing

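The counts of members called between organs held within 1.5 times under all alternatives, 10, 10 and 8, and no called direction turned. The counts of 0 between ages did not always hold, and the cause was not tested. In liver at 12 against 8 weeks DESeq2 called 3 members, leaving out the filter on low counts 4, the second single-strand counts 1, and leaving out single libraries 0 to 1, where the 1 was Ces1f without replicate 2 of 10 weeks or replicate 4 of 12 weeks. In liver at 12 against 10 weeks DESeq2 and no filter called 2 each. Without the filter 0.960% and 0.788% of all genes were called in these comparisons. The second single-strand counts called 0.336% of all genes at 12 against 8 weeks. Leaving out replicate 2 of 10 weeks or replicate 4 of 12 weeks called 0.574% and 0.509% there. In kidney no filter called 2 at 12 against 8 weeks, 2 at 10 against 8 weeks and 4 at 12 against 10 weeks, where DESeq2 called 4, the first single-strand counts 1, the second 2, and the sum of both strand columns, added after the data were seen, 1. Without the filter 1.22%, 2.39% and 2.23% of all genes were called in these 3. At 12 against 10 weeks the first and second single-strand counts and their sum called 0.654%, 0.815% and 0.828% of all genes. Leaving out single kidney libraries gave 0 to 1 at 10 against 8 weeks (Ces1g, without replicate 3 of 12 weeks, where 0.766% of all genes were called). At 12 against 10 weeks it gave 0 to 2 (Ces1e and Ces1g without replicate 4 of 10 weeks, Ces1g without replicate 3 of 12 weeks). The shares of all genes called in these last 2 fits were 2.24% and 0.259%. In heart no filter called 2 at 10 against 8 and 2 at 12 against 10 weeks, where it called 2.18% and 0.840% of all genes. Leaving out single heart libraries gave 0 to 1 at 12 against 8 weeks (Ces2e, without replicate 1 of 8 weeks, where 5.06% of all genes were called). For the difference of change between liver and kidney limma-voom called 1, Ces2c. Of 1309 alternative fold changes between ages 40 had the other sign, for 17 results, none of them called. With a replicate block 0 members were called in any age comparison. That fit called at most 0.00682% of all genes in liver, 0.00567% in kidney and 0.159% in heart, so its 0 says little about the members. The labels do not say that a number marks an animal, and the libraries were not taken as paired, since same-numbered deviations correlated between -0.265 and 0.171 over the ages of a tissue and library numbers between -0.00884 and 0.164 over tissues, which does not exclude shared animals. Without the filter on low counts 9 members were tested in kidney in place of 7.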
